A study of Arabidopsis thaliana with 26 samples.

Results

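A group of 246 Arabidopsis probe sets, out of 22746 on the array other than controls, had higher signal in seedlings given brassinolide or castasterone. These are the last compounds of brassinosteroid synthesis. Averaged over the early precursors cathasterone and 6-deoxocathasterone, the same probe sets had little of that difference. Membership was set by measured values. For each treatment, D is the mean of log2(intensity + 5) over its arrays minus the mean of the 4 mock and campestanol arrays. A member had an average intensity of 20 or more, a D of at least 0.8 for brassinolide and for castasterone, and a mean D for the early precursors below 0.35 times the mean D for brassinolide and castasterone, called the endpoint D below. These values met the first conditions in 360 probe sets, of which 252 had the low ratio. The rule also left out genes named XTH, EXPA, EXLA or EXO and 4 probe sets given by ID. This removed 12 of the 360: XTH19, XTH33, XTH18, XTH16, EXLA1 and EXLA2, which had the low ratio, and 6 with a higher ratio, namely EXO, EXPA8 and the 4 given by ID. The 102 induced probe sets with a ratio of 0.35 or more, after the same exclusions, serve below as the other induced probe sets. The brassinolide, castasterone, cathasterone, 6-deoxocathasterone, mock and campestanol values of the members are therefore described without a test.

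Brassinosteroids are steroid hormones that promote cell elongation. They bind the receptor kinase BRI1 at the cell surface, which leads to activation of the transcription factors BZR1 and BES1 and to higher expression of many genes of cell wall growth. Plants make brassinolide from campestanol through parallel routes with the same steps, a 6-oxo series that carries a ketone at C-6 early and a 6-deoxo series that gains it late. Along each series the side chain is hydroxylated, the hydroxyl at C-3 is oxidised to a ketone and reduced again in the opposite orientation, and a hydroxyl is added at C-2.

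The RNA came from whole 7-day-old seedlings labelled de-etiolated, of Col background and stock code N6159; their genotype is not stated by the labels. From general knowledge, and not from the labels, this code is understood to be that of det2-1, a mutant in a steroid reductase early in brassinosteroid synthesis that makes little brassinosteroid of its own; all 13 groups share it. There were 13 groups of 2 arrays, lettered A and B, each treated for 3 h. They received a mock treatment, campestanol at 10 µM, or 1 µM of 6-deoxocathasterone, cathasterone, 6-deoxoteasterone, teasterone, 3-dehydro-6-deoxoteasterone, 3-dehydroteasterone, 6-deoxotyphasterol, typhasterol or 6-deoxocastasterone. The last groups received castasterone at 100 nM and brassinolide at 10 nM, so the endpoints were given at lower doses than the intermediates. Whether A and B stand for separate cultures is not stated; p-values therefore reflect array-to-array spread alone, and that spread could be purely technical.

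Values are linear MAS5 intensities, with array medians of 33.9 to 41.0 over 26 arrays. Correlations between the A and B array of a group lay between 0.948 and 0.975 across the tested probe sets. Of the shoot markers with a named probe set, PSAN, a photosystem I subunit, ranged from 1022 to 2025. RCA (Rubisco activase) was below 100 on 4 of 26 arrays, at 15.5 on 3-dehydro-6-deoxoteasterone B, 22.7 on teasterone B, 36.5 on 6-deoxocastasterone A and 53.9 on brassinolide B, and reached 181 to 1591 on the others. The other array of these groups had 1591, 858, 585 and 305 in the same order, against 663 and 729 in mock. Whether this variation plays a part in the members' values was not tested. The root markers PYK10, a root beta-glucosidase, and EXPA7, a root hair expansin, ranged from 1164 to 2357 and from 106 to 240.5. In whole seedlings, a different share of cells of a type and a different amount of RNA per cell cannot be told apart.

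Of the 246 members, 118 name exactly 1 gene, 3 name several and 125 name none in the annotation used here. No named gene had more than 1 member probe set. Mean intensity over all arrays ranged from 20.4 to 1013. The endpoint D had a median of 1.15 and ran from 0.82 to 3.75; it was at least 2 in 22 members and below 1 in 66. The ratio had a median of 0.20 and was below 0 in 22 members. Just inside the D threshold were 255411_at (0.804), AT1G27200 (0.808) and AT1G23030 (0.810), and just outside were AT5G11970 (0.7997), 259185_at (0.797) and 261363_at (0.796). Just inside the ratio threshold were UPB1 (0.346), AT5G47550 (0.347) and AT4G31000 (0.347), and just outside were 256522_at (0.35), ndhF (0.355) and AT5G44050 (0.357).

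The label "needing late brassinosteroids" reaches further than the values. Expressed as a share of each member's endpoint D, the median over members was 0.77% for campestanol, 12.9% for 6-deoxocathasterone and 23.9% for cathasterone, the values that chose them. Among the compounds that did not choose them, the median was 34.3% for 6-deoxoteasterone, 51.4% for teasterone, 57.7% after 3-dehydro-6-deoxoteasterone and 77.7% after 3-dehydroteasterone. It was 49.0% for 6-deoxotyphasterol, 88.9% for typhasterol and 86.3% for 6-deoxocastasterone. Intermediates in the middle of the pathway, at 1 µM, thus already had an appreciable part of the endpoint D. Each share uses the control arrays and the endpoint D that chose the members, so it is a description without a test. The members are called below by their low mean response to the early precursors.

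The number of members at 50% or more of the endpoint D gives the same picture. It was 52 of 246 for 6-deoxoteasterone, 130 with teasterone, 164 with 3-dehydro-6-deoxoteasterone, 223 with 3-dehydroteasterone, 116 for 6-deoxotyphasterol, 241 for typhasterol and 244 for 6-deoxocastasterone. Which compound gave the highest or the lowest D was counted for members only. Of the 7 compounds, typhasterol gave the highest D in 128 members and 6-deoxocastasterone in 77. The lowest D belonged to 6-deoxoteasterone in 166 members, to 6-deoxotyphasterol in 35 and to teasterone in 29. The order along the pathway was therefore not even: the median share was lower for 6-deoxotyphasterol than for 3-dehydro-6-deoxoteasterone, from which it is made. This was not particular to the members, since the other induced probe sets had median shares of 65.6% and 82.3% for these compounds.

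**Figure D1:**
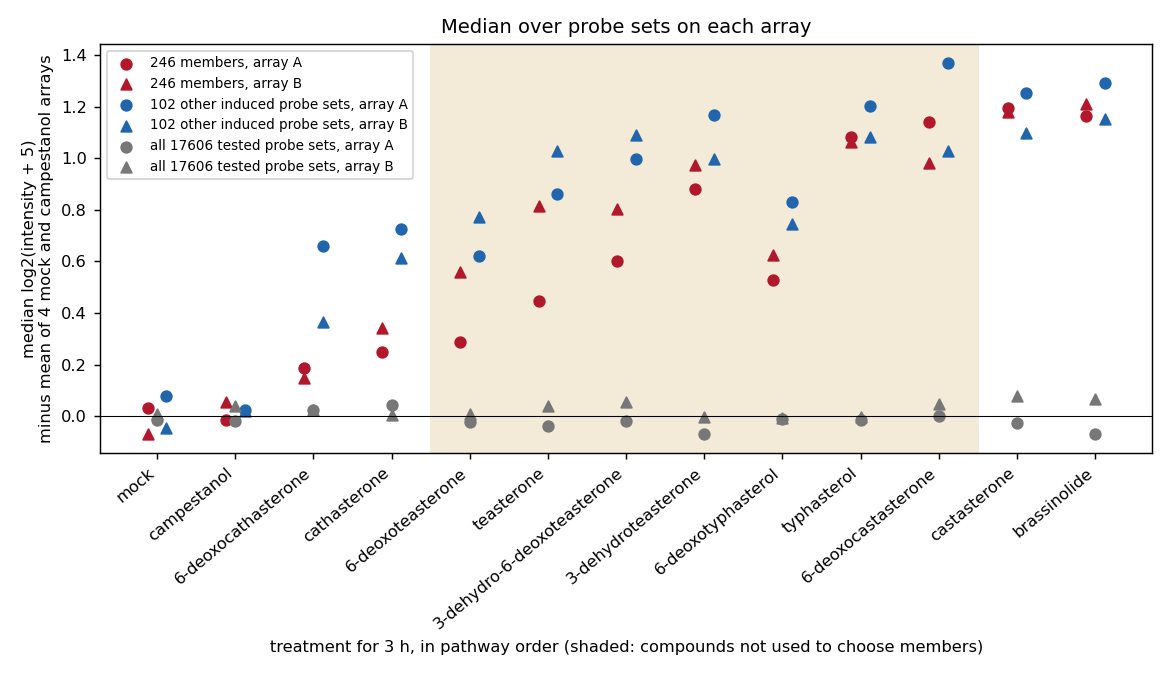
Median over probe sets of log2(intensity + 5) minus the mean of the 4 mock and campestanol arrays (y axis), on each array (circle A, triangle B), for the 13 treatments in pathway order (x axis); red are the 246 members, blue the 102 other induced probe sets, grey all 17606 tested. On the shaded compounds, which did not choose the members, the member median lay between 0.29 and 1.14, and all tested probe sets stayed near 0.

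The A and B arrays separated most for the first intermediates. The member median of D was 0.29 on the A array and 0.56 on the B array of 6-deoxoteasterone, and 0.45 and 0.82 on those of teasterone. It was 1.08 and 1.06 for typhasterol and 1.14 and 0.98 for 6-deoxocastasterone. All 4 arrays of the last compounds thus had higher medians than all 4 arrays of the first. The difference between the last and the first compounds, taken per member, had a median of 0.70 among A arrays and 0.37 among B arrays.

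The member with the largest endpoint D was AT1G29660, which encodes a lipase or esterase of the GDSL family, enzymes that cleave esters such as lipids and cutin. Its intensity was 28.9 and 49.9 on the mock arrays and 21.5 and 39.5 with campestanol. It was 37.5 and 54.9 with 6-deoxocathasterone, 66.2 and 141 with cathasterone, 60.4 and 305 with 6-deoxoteasterone and 79.6 and 332 with teasterone. It was 169 and 386 with 3-dehydro-6-deoxoteasterone, 249.9 and 445 with 3-dehydroteasterone, 159 and 339 with 6-deoxotyphasterol, 345 and 540.3 with typhasterol, 277 and 507 with 6-deoxocastasterone, 393 and 571 with castasterone and 435 and 698 with brassinolide. The B array was the higher one in all 13 groups, and with 6-deoxoteasterone the arrays lay so far apart that they spanned the range between control and late compounds.

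**Figure D2:**
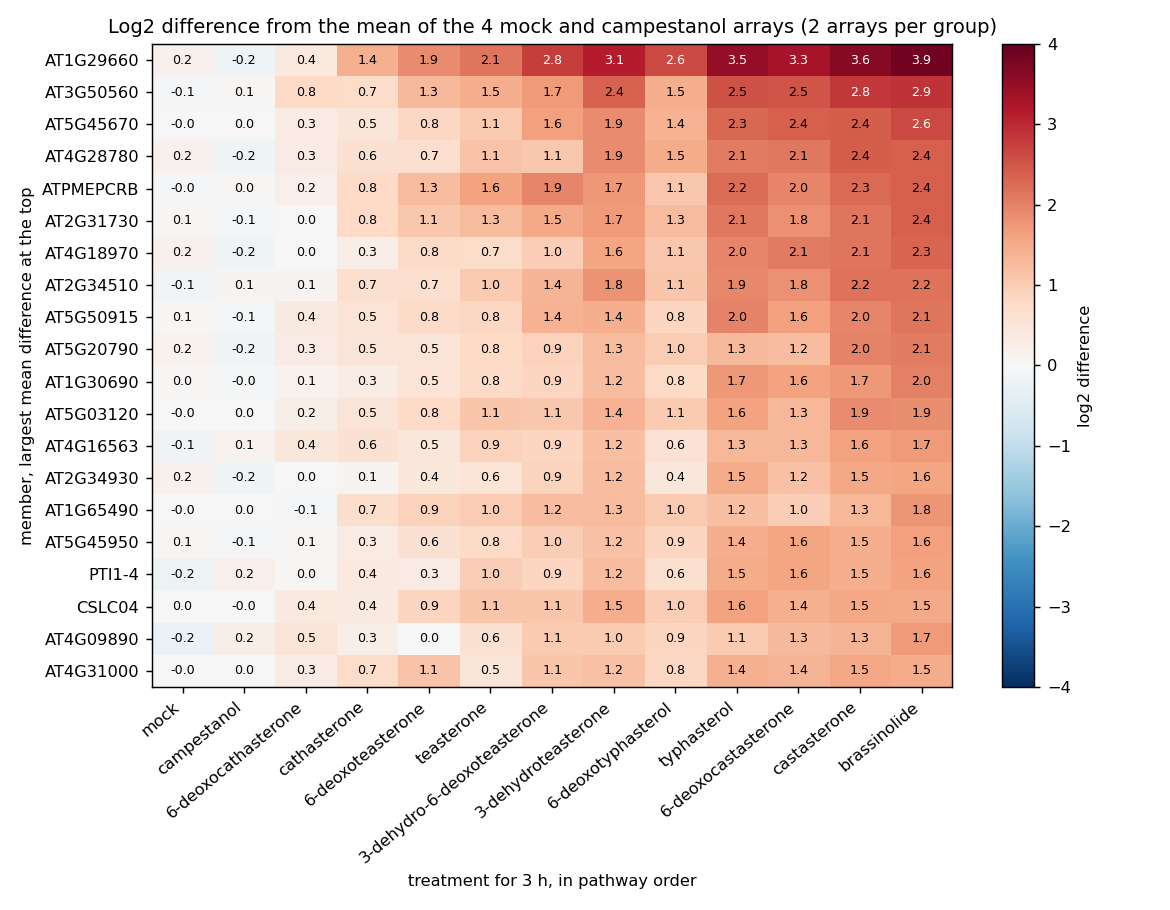
D, the log2 difference from the mean of the 4 mock and campestanol arrays (colour and printed value), for the 20 members naming 1 gene with the largest mean D for brassinolide and castasterone (rows) in the 13 treatments in pathway order (columns, 2 arrays each). AT1G29660 leads with 3.64 for castasterone and 3.85 for brassinolide, and most rows are lower for 6-deoxotyphasterol than for the compounds beside it.

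Members whose products are known from their gene family were grouped by hand after the member list had been seen, among the 118 that name 1 gene, so a group may miss members. The pectin and the signalling group, described below, had 8 members each, as many as the GDSL lipase group. The GDSL lipase-family members were AT1G29660, AT5G45670, AT4G28780, AT4G18970, AT5G45950, AT1G28600, AT1G75900 and AT1G29670. Their median endpoint D was 1.88, against 1.15 over all members. AT5G45670 had 52.5 to 56.6 on the 4 mock and campestanol arrays. It had 67.8 and 71.1 with 6-deoxocathasterone, 72.0 and 83.5 with cathasterone, 67.5 and 147 with 6-deoxoteasterone, 74.0 and 190.0 with teasterone, 139 and 162 with 6-deoxotyphasterol, 241 and 345 with typhasterol and 259.9 and 370.5 with 6-deoxocastasterone. Its arrays of the last compounds did not overlap with those of the first.

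AT1G29670, the neighbour of AT1G29660 on the chromosome, was the brightest GDSL member and behaved less evenly. It had 494 to 817 on the mock and campestanol arrays, 904 and 673 with 6-deoxoteasterone, 1507 and 988 with typhasterol and 1376 and 942 with 6-deoxocastasterone. Here the A array was the higher one in 12 of the 13 groups, and in AT1G29660 the B array was. Of 80 pairs of neighbouring genes that both had a named, tested probe set and held at least 1 member, 2 consisted of members: this pair, and AT3G05900 with the pectin acetylesterase gene AT3G05910.

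**Figure D3:**
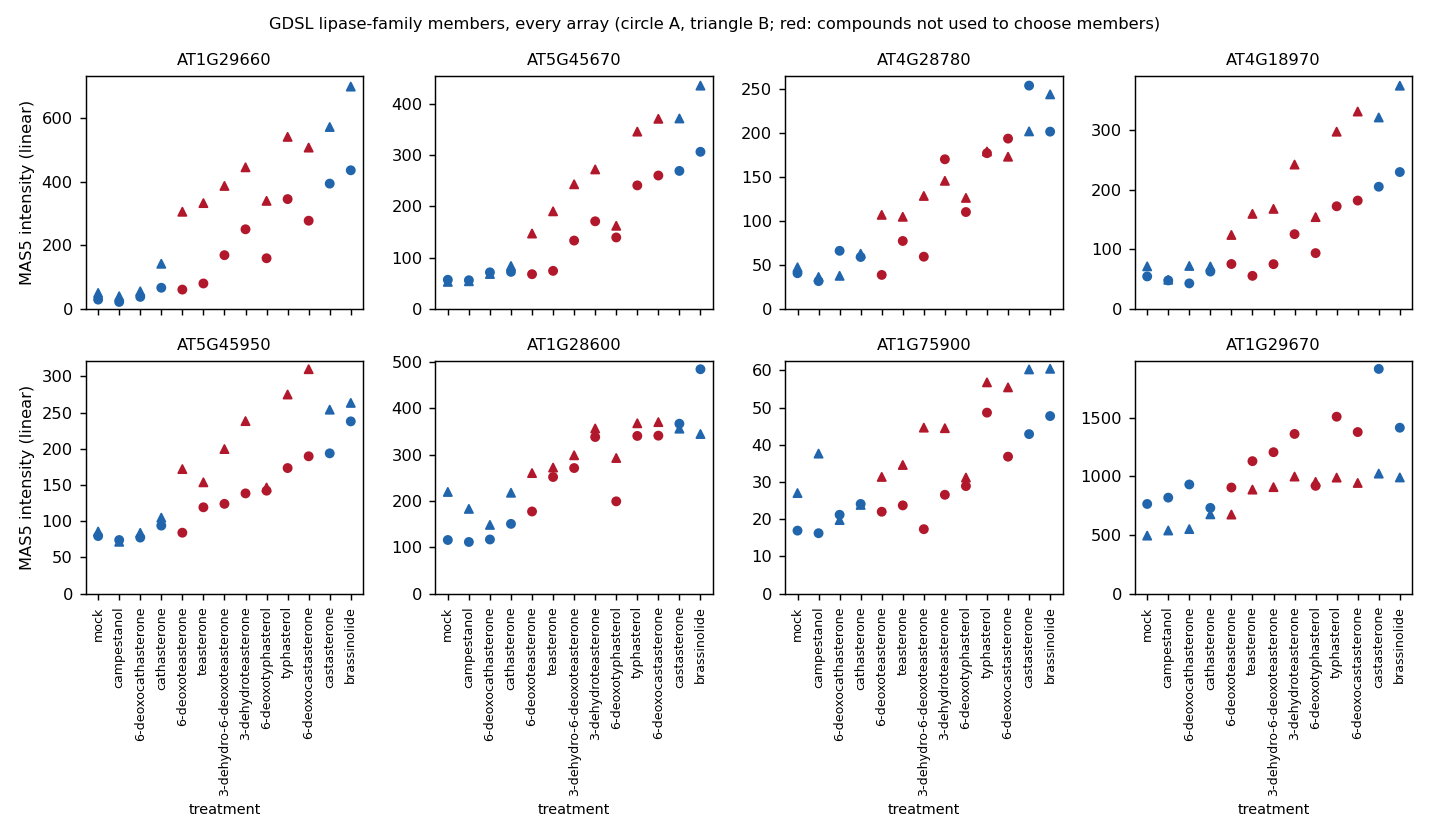
MAS5 intensity on a linear axis (y) of the 8 GDSL lipase-family members on every array (circle A, triangle B), in the 13 treatments in pathway order (x); red marks the 7 compounds that did not choose the members. In AT5G45670 the arrays of typhasterol and 6-deoxocastasterone, 241 to 370.5, lie above those of teasterone and 6-deoxoteasterone, 67.5 to 190.0.

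Pectin is the wall polysaccharide whose esterification and cleavage bear on wall stiffness. The 8 members recognised as acting on it are the pectin methylesterases ATPMEPCRB and AT3G49220, the pectate lyases AT3G07010 and AT1G04680, the pectin methylesterase inhibitor AT4G25260, the acetylesterase AT3G05910, AT3G16850, of the pectin lyase-like family that holds the polygalacturonases, and GAUT15, of the galacturonosyltransferase family. Their median endpoint D was 1.10, with ATPMEPCRB highest at 2.32. ATPMEPCRB had 66.4 to 94.3 on the mock and campestanol arrays, 145 and 262 with 6-deoxoteasterone, 153 and 407 with teasterone, 238 and 428 with 3-dehydro-6-deoxoteasterone and 237 and 313 with 3-dehydroteasterone. It had 162 and 183 with 6-deoxotyphasterol, 449 and 342 with typhasterol and 338 and 304 with 6-deoxocastasterone. The 6-deoxotyphasterol arrays were below those of both 3-dehydro compounds, while the typhasterol arrays were above those of 3-dehydroteasterone.

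The pectate lyase gene AT1G04680 was less variable between arrays. It had 208 to 298 on the mock and campestanol arrays, 269 and 274 with 6-deoxoteasterone, 339 and 323 with teasterone, 467 and 442 with typhasterol and 432 and 414 with 6-deoxocastasterone. With 6-deoxoteasterone it was within the range of the controls.

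The other wall polysaccharide members were CSLC04, which makes the glucan backbone of xyloglucan, TBL45, of the TRICHOME BIREFRINGENCE-LIKE family, AT5G15050, a glucuronosyltransferase-like gene of arabinogalactan proteins, and the beta-1,3-glucanase-family gene AT3G55430. CSLC04 had 177 to 255 on the mock and campestanol arrays, 339 and 476 with 6-deoxoteasterone, 385 and 579 with teasterone, 679 and 657 with typhasterol and 561 and 619 with 6-deoxocastasterone. Its arrays of 6-deoxoteasterone and teasterone already lay above all control arrays. TBL45 had 95.3 to 135 on the mock and campestanol arrays, 112 and 135 with 6-deoxoteasterone, 147 and 172 with teasterone and 222 to 311 on the 4 arrays of typhasterol and 6-deoxocastasterone.

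The basic helix-loop-helix genes AT2G31730, AT5G50915 and UPB1 (UPBEAT1, which in roots represses peroxidase genes) and the ERF/AP2-family gene AT4G32800 were the members recognised as transcription factors. AT2G31730 had 33.0 to 42.2 on the mock and campestanol arrays, 55.7 and 139 with 6-deoxoteasterone, 73.6 and 139 with teasterone, 176 and 191 with typhasterol and 155 and 148 with 6-deoxocastasterone. Every array of these compounds lay above the controls. AT4G32800 was dim and variable, from 6.42 to 54.6 on the arrays of the 7 compounds and from 26.8 to 57.6 on the castasterone and brassinolide arrays, against 2.66 to 33.5 on the mock and campestanol arrays. These ranges overlap, and 1 campestanol array was far below the other control arrays.

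Among signalling members were PTI1-4, a kinase of the Pto-interacting family, WAG2, an AGC kinase that acts on auxin efflux carriers, AT2G14900, of the gibberellin-regulated GASA family, AT1G47380, a protein phosphatase of the PP2C family, AT3G25600, a calmodulin-like gene, AT1G23030, a U-box ubiquitin ligase gene, and the protein kinase-family genes AT5G25440 and AT1G56720. AT2G14900 had 148 to 185 on the mock and campestanol arrays, 206 and 194 with 6-deoxoteasterone, 199 and 198 with teasterone, 389 and 508 with typhasterol and 272 and 426 with 6-deoxocastasterone. The first compounds stood just above the controls and the last ones well apart from both. WAG2 had 20.9 to 46.0 on the mock and campestanol arrays, 45.4 to 69.0 on the 4 arrays of 6-deoxoteasterone and teasterone and 75.7 to 96.5 on those of typhasterol and 6-deoxocastasterone.

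The cytoskeleton group held the actin gene ACT11, the formin gene AT3G07540, whose family nucleates actin filaments, AT5G48460, of the actin-bundling fimbrin family, IQD22, of a calmodulin-binding family found at microtubules, and AT2G35880, of the microtubule-associated TPX2 family. IQD22 had 42.5 to 57.2 on the mock and campestanol arrays, 37.1 to 57.3 on the arrays of 6-deoxoteasterone and teasterone and 58.0 to 94.1 on those of typhasterol and 6-deoxocastasterone. The first compounds overlapped with the controls. AT5G48460 had 39.6 to 54.4 on the mock and campestanol arrays, 47.9 and 44.9 with 6-deoxoteasterone, 49.3 and 69.7 with teasterone, 64.5 and 77.7 with typhasterol and 76.3 and 70.9 with 6-deoxocastasterone. Its teasterone B array lay above its typhasterol A array, while in the other 4 genes every array of the last compounds was above every array of the first. Further members were 4 aspartyl protease genes (AT4G16563, NANA, AT1G66180 and AT2G39710), the peroxidase genes AT5G39580 and AT3G28200, the patellin-family gene AT1G30690, the glucosylceramide synthase gene AT2G19880 and the methionine sulfoxide reductase gene MSRB9.

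The 3 members that are chloroplast genes owe their place to the A arrays: rps14, of the small ribosomal subunit, ndhB, of the NDH complex, and ycf2. The probe set of rps14 had 134 on the A array and 16.9 on the B array of castasterone and 102 and 19.8 on those of brassinolide, against 19.4 to 24.8 on the mock and campestanol arrays. The ndhB probe set, which matches several copies, had 219 and 50.9 with castasterone and 191 and 56.8 with brassinolide, against 41.4 to 51.1. The B arrays were near the controls in all 3, so these members do not show a difference on both arrays. When the rule was applied to the A arrays alone or the B arrays alone it took 205 and 263 probe sets, of which 169 and 177 were among the 246.

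The compounds that did not choose the members allow a test. The last 1 µM intermediates of each series, typhasterol and 6-deoxocastasterone, were compared with the first ones outside the rule, teasterone and 6-deoxoteasterone, with limma on all 26 arrays and Benjamini-Hochberg adjustment over 17606 probe sets. Of 246 members, 11 were higher and 0 lower at an adjusted p under 0.05, where 0.0795% of all tested probe sets were higher (14 of 17606). None of the 102 other induced probe sets was called, and 40 of them had an unadjusted p under 0.05. The median log2 difference was 0.53 over members (quartiles 0.42 and 0.72), 0.35 over the other induced probe sets and 0.02 over all tested. Among members 243 had a difference above 0, and 176 (71.5%) an unadjusted p under 0.05, against 7.5% of all tested and 39.2% of the other induced probe sets. No test was made of members against the other induced probe sets. The fit did not use the letters A and B, although differences between A and B arrays correlated between groups (median 0.32). With the letter as a block limma called more members, 102, a count given at the end with its limits.

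All 4 arrays of the last compounds were above all 4 arrays of the first in 101 members (41.1%), against 2.68% of all tested probe sets and 17.6% of the other induced ones. By family these were 6 of 8 GDSL lipase members, 6 of 8 pectin members, 2 of 4 other wall polysaccharide members, 4 of 8 signalling members, 4 of 5 cytoskeleton members, 1 of 4 transcription factors, 0 of 4 aspartyl proteases, 0 of 2 peroxidases, 2 of 2 lipid genes and 2 of 4 metabolism genes (MSRB9, hemb2, HMT-1 and GFAT).

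The 4 called members with the largest difference were AT5G45670 (1.41 ± 0.27 SE, limma adjusted p = 0.0485), 251922_at (1.02 ± 0.14, 0.00473), AT1G30690 (1.02 ± 0.20, 0.0485) and AT2G34510 (1.02 ± 0.19, 0.0422). AT1G30690, whose family carries lipids between membranes through a Sec14 domain, had 269 and 341 with typhasterol and 212 and 357 with 6-deoxocastasterone, against 127 and 182 with teasterone and 109.9 and 152 with 6-deoxoteasterone. AT2G34510, of a family of wall-associated DUF642 proteins, had 309.7 and 283 with typhasterol and 327 and 238 with 6-deoxocastasterone, against 125 and 206 with teasterone and 90.8 and 161 with 6-deoxoteasterone. In both genes the groups did not overlap. The probe set 251922_at, which names no gene, had 142 and 135 with typhasterol and 109 and 116 with 6-deoxocastasterone, against 50.6 and 85.3 with teasterone and 56.9 and 48.1 with 6-deoxoteasterone.

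The remaining 7 called members, given here because they complete the count, were TBL45 and 6 probe sets that name no gene (266693_at, 258589_at, 252711_at, 247884_at, 247069_at and 255411_at), with differences of 0.63 to 0.94. The number of calls depended on single arrays. It was 1 without typhasterol A, 3 without typhasterol B, 4 without 6-deoxocastasterone B, 3 without 6-deoxoteasterone A, 2 without teasterone A, 27 without 6-deoxoteasterone B and 24 without teasterone B. Without 6-deoxocastasterone A it was 10. Only 247069_at was called without each of the 8 arrays, while AT5G45670 was called in 2 of these 8 fits. The member median was 0.45 to 0.62 over the same fits. Counts over all tested probe sets in these fits are not printed here.

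**Figure D4:**
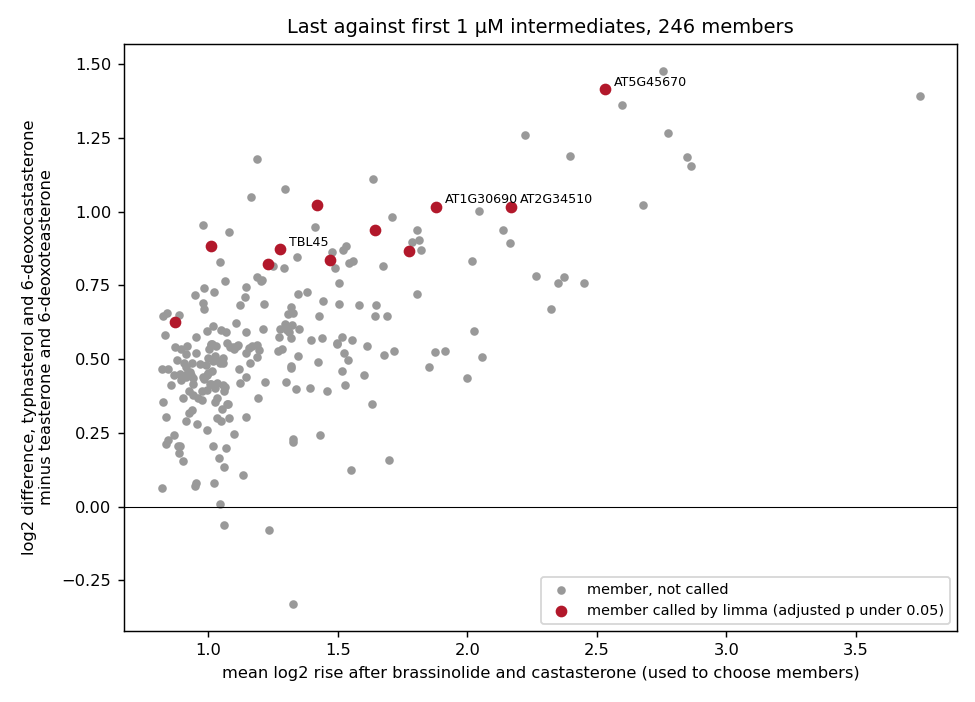
Log2 difference of typhasterol and 6-deoxocastasterone minus teasterone and 6-deoxoteasterone (y axis) against the mean log2 difference of brassinolide and castasterone from mock and campestanol, which chose the members (x axis), 1 point per member. All but 3 of the 246 points lie above 0, and the 11 called members (red) run from 0.63 to 1.41.

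Each structural step between compounds at 1 µM was then taken by itself. The hydroxyl at C-2 separates 6-deoxocastasterone from 6-deoxotyphasterol. No member was called for it (limma, all tested probe sets 0.00568% called higher), 77 members (31.3%) had an unadjusted p under 0.05, all higher, against 4.85% of all tested, and the member median was 0.44. Both arrays were higher with 6-deoxocastasterone in 162 members (65.9%), against 19.5% of all tested. Over the 102 other induced probe sets the median was 0.36, and 21.6% had an unadjusted limma p under 0.05. The members with the largest t statistics were 247069_at, AT1G21830, 264157_at and AT3G07540. The formin gene AT3G07540 had 119 and 103 with 6-deoxocastasterone and 67.6 and 45.2 with 6-deoxotyphasterol, a difference of 0.93 (95% interval 0.47 to 1.40, adjusted p = 0.306 by limma). 264157_at had 70.1 and 90.8 with 6-deoxocastasterone and 13.5 and 28.1 with 6-deoxotyphasterol, a difference of 1.78 (0.90 to 2.65, adjusted p = 0.297). The arrays did not overlap in either.

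The C-6 ketone separates typhasterol from 6-deoxotyphasterol. No member and 0% of all tested probe sets were called, 86 members (35.0%) had an unadjusted p under 0.05, all higher with typhasterol, against 3.6% of all tested, and the member median was 0.49. Both arrays were higher with typhasterol in 194 members (78.9%) and lower in 0, against 16.8% and 15.7% of all tested. The other induced probe sets had a median of 0.35 for this pair, and 19.6% of them had an unadjusted limma p under 0.05. AT3G06070 had 177 and 222 with typhasterol and 90.6 and 106 with 6-deoxotyphasterol, a difference of 0.98 (95% interval 0.53 to 1.43, limma adjusted p = 0.407). The same ketone separates teasterone from 6-deoxoteasterone, with a member median of 0.20, and 3-dehydroteasterone from 3-dehydro-6-deoxoteasterone, with 0.24. Both arrays of the ketone form were higher in 62 members (25.2%, against 15.2% of all tested) for the teasterone pair and in 89 (36.2%, against 10.8%) for the 3-dehydro pair. Among the 102 other induced probe sets they were higher in 39 and 25, with medians of 0.25 and 0.09 in the same order. Over the 3 pairs together the member median was 0.32, 114 members (46.3%) had an unadjusted p under 0.05, against 5.2% of all tested, and 1 member was called, 266693_at, at 0.84 ± 0.12 (SE, limma adjusted p = 0.026), where 0.00568% of all tested were higher. That probe set had 1091 and 976 with typhasterol and 544 and 487 with 6-deoxotyphasterol, 1008 and 987 with 3-dehydroteasterone and 588 and 667 with 3-dehydro-6-deoxoteasterone, and 615 and 730.2 with teasterone and 312 and 439 with 6-deoxoteasterone. The ketone form was higher on both arrays in each pair. The call was lost without typhasterol A, typhasterol B, 6-deoxoteasterone A, teasterone B, or any single array of 6-deoxotyphasterol or of the 3-dehydro compounds, where 0 members were called, and 2 were called without teasterone A.

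The difference between the typhasterol pair and the mean of the other pairs was tested directly. Its member median was 0.27, no member was called (0% of all tested), and 15 members (6.10%) had an unadjusted p under 0.05, against 2.43% of all tested. The largest of these by t statistic was 259516_at, 0.96 (95% interval 0.39 to 1.52, limma adjusted p = 1.00). The members' larger response to the ketone in the typhasterol pair is thus a description of their medians. It was not particular to the members, since the other induced probe sets had a median of 0.20 for the same difference.

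The step from a C-3 hydroxyl to a ketone, averaged over both series, gave a member median of 0.31. No member was called (0% of all tested), and 72 members (29.3%) had an unadjusted p under 0.05, against 2.96% of all tested. Both arrays were higher with 3-dehydro-6-deoxoteasterone than with 6-deoxoteasterone in 98 members (39.8%, against 17.7% of all tested), and with 3-dehydroteasterone than with teasterone in 99 (40.2%, against 9.59%). Over the other induced probe sets the median of the averaged step was 0.24, and 14.7% had an unadjusted limma p under 0.05. AT2G34510 had 288 and 257 with 3-dehydroteasterone and 125 and 206 with teasterone, and 181 and 221 with 3-dehydro-6-deoxoteasterone and 90.8 and 161 with 6-deoxoteasterone, a mean difference of 0.72 (95% interval 0.33 to 1.11, limma adjusted p = 1.00).

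The next step, reduction of that ketone, gave medians of opposite sign in the 2 series. The member median over both series was 0.03, no member was called (0% of all tested), and 2 members (0.81%) had an unadjusted p under 0.05, against 1.9% of all tested. By series, the member median was 0.14 for typhasterol minus 3-dehydroteasterone and -0.11 for 6-deoxotyphasterol minus 3-dehydro-6-deoxoteasterone. Both arrays were higher with typhasterol in 60 members (24.4%, against 14.6% of all tested), and both were lower with 6-deoxotyphasterol in 56 (22.8%, against 17.2%). Among the 102 other induced probe sets these counts were 11 and 37, with medians of 0.02 and -0.19 in the same order. Members with both patterns numbered 16 (6.50%, against 3.04%). The test of the difference between the series, added after the data had been seen, called no member (0% of all tested); 8 (3.25%) had an unadjusted p under 0.05, against 3.43% of all tested. The median of that difference was 0.25 over members and also 0.25 over the other induced probe sets.

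**Figure D5:**
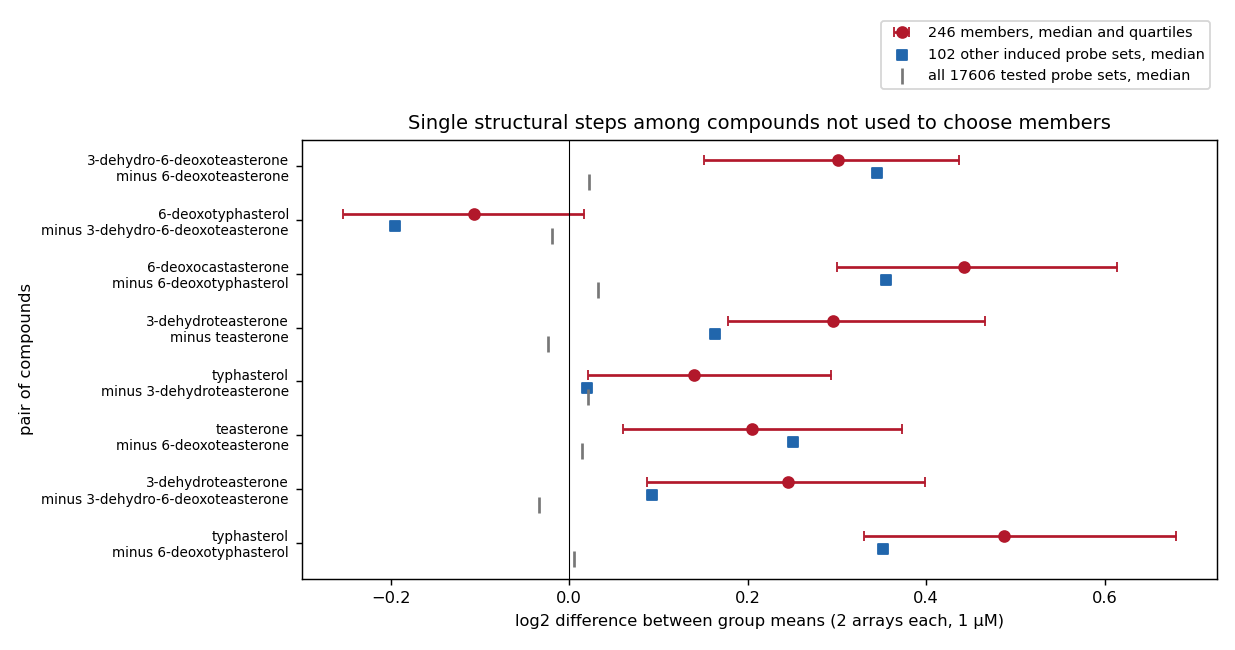
Log2 difference between group means (x axis) for 8 pairs of compounds at 1 µM that differ by 1 structural step (rows), as the median and quartiles of the 246 members (red), the median of the 102 other induced probe sets (blue) and of all 17606 tested (grey). The member medians are largest for typhasterol minus 6-deoxotyphasterol (0.49) and 6-deoxocastasterone minus 6-deoxotyphasterol (0.44), and -0.11 for 6-deoxotyphasterol minus 3-dehydro-6-deoxoteasterone.

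Typhasterol and 6-deoxocastasterone, which differ in both the C-6 ketone and the C-2 hydroxyl, gave near values. The member median of typhasterol minus 6-deoxocastasterone was 0.05 (quartiles -0.09 and 0.18). Both arrays were higher with typhasterol in 35 members (14.2%) and lower in 12 (4.88%), against 9.83% and 15.1% of all tested.

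Members differed in how much of their endpoint D the 7 compounds gave on average. The share had a median of 64.2% and ran from 25.2% to 90.8%, with quartiles of 56.3% and 69.5%. At the low end were hemb2, a homologue of the tetrapyrrole enzyme aminolevulinate dehydratase, AT1G72070 and AT5G50335. hemb2 had 21.3 to 45.4 on the mock and campestanol arrays, 48.6 and 65.2 with typhasterol, 35.9 and 29.9 with 6-deoxocastasterone, 45.0 and 85.9 with castasterone and 48.8 and 92.1 with brassinolide. Its 6-deoxocastasterone arrays and the castasterone A array were within the control range. At the high end were 266037_at, 248524_s_at and 261949_at, which name no gene. 266037_at had 63.3 to 78.1 on the mock and campestanol arrays, 131 and 159.9 with 6-deoxoteasterone, 168 and 132 with teasterone and 178 and 136 with brassinolide, so the first compounds overlapped with brassinolide. Across the 246 members the share was weakly related to the endpoint D (r = 0.15, rho = 0.16) and to log2 mean intensity (r = 0.21, rho = 0.18), values that share arrays.

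Of lists of brassinosteroid, gibberellin, ethylene and auxin transport genes, receptor kinases and cellulose synthases, 8 genes had a named, tested probe set. These were the brassinosteroid-inactivating acyltransferase gene BAT1, the receptor kinases THE1 and FER, the gibberellin receptors GID1A, GID1B and GID1C, COB, needed for oriented cellulose deposition, and CSLC04, the only member. No gene of the lists for brassinosteroid synthesis and signalling, growth-related bHLH factors, ethylene or auxin transport had one, so these lists are not covered. Against mock, 2 of the 8 passed the limma threshold for brassinolide and the same 2 for castasterone, where 2.02% and 1.78% of all tested probe sets were higher. These were CSLC04 and THE1, a wall-sensing kinase among the 102 other induced probe sets. Values of the same arrays put both in their sets, so the count carries no information. THE1 was at 239 after brassinolide, 247 after castasterone and 98.3 in mock (means of 2 arrays).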

How the data were processed

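Each ATH1 array has a deposited linear intensity per probe set; per the submitters' processing notes the authors used MAS5, whose version is not given here. They were already scaled to a trimmed mean near 100 (2 to 98% trimmed mean, median over arrays 99.5 without control probe sets), so no normalization was added. The number of arrays, 2 per group, limits the precision. Probe sets were named through the platform table and RefSeq (TAIR10.1), for names and neighbours only; 117 of the 118 members naming 1 gene matched a RefSeq locus. Members and lists were chosen with earlier results of these data known.

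Values were analysed as log2(intensity + 5), so that dim probe sets show less than their full change. With limma 3.58.1 (R 4.3.3), 1 coefficient per group was fitted to all 26 arrays (eBayes with trend, 13 residual degrees of freedom, probe sets with a mean of at least 10, Benjamini-Hochberg over 17606, calls at an adjusted p under 0.05). The fit was tested on simulated data with independent noise on each array. Those data lacked the correlated differences between A and B arrays seen here, so they do not show how these affect the calls. Named were the 20 members with 1 gene and the largest endpoint D, in each comparison the 4 largest called or, failing that, the 4 largest t statistics, list members, threshold neighbours and the 3 lowest and 3 highest shares. Family members, the other called members, chloroplast members and neighbours were named after their values were seen. Alternatives were other normalizations, pseudocounts and filters, eBayes without trend, fewer arrays, the array letter as a block and leaving out arrays. Pattern searches for further gene families matched clone names and were not used.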

Additional observations from a re-analysis of the deposited data

Results flagged for a closer look

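Among the members named by rule, 9 cases were flagged. In each, a member's arrays moved in opposite directions, without overlap, for the same structural step in different compound pairs. A share over all tested probe sets was counted only for the C-3 reduction pattern below. The 9 cases are therefore a list, and whether they exceed what other probe sets give is not shown. The fits of the difference between series for C-3 reduction, and of the typhasterol pair against the mean of the other C-6 pairs, called no member (limma); the C-3 oxidation case, and each C-6 pair against a single other pair, was not tested.

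For the C-3 reduction, with the 6-oxo series (typhasterol minus 3-dehydroteasterone) before the 6-deoxo series (6-deoxotyphasterol minus 3-dehydro-6-deoxoteasterone), the log2 differences were 0.18 and -0.24 in AT3G50560, 0.52 and -0.87 in the pectin methylesterase gene ATPMEPCRB, and 0.24 and -0.11 in 247069_at. They were 0.90 and -0.84 in 264157_at and 0.28 and -0.46 in 266037_at. Over all members this pattern occurred in 16 of 246 (6.50%), against 5.88% of the other induced probe sets and 3.04% of all tested. In AT3G50560 the separation in the 6-oxo series was thin, with 252.3 on typhasterol A and 251.8 on 3-dehydroteasterone A.

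For the C-6 ketone, the typhasterol pair against the teasterone pair gave 0.72 and -0.39 in 259516_at and 0.45 and -0.47 in 258589_at. The typhasterol pair against the 3-dehydroteasterone pair gave 0.44 and -0.31 in 266037_at. For the C-3 oxidation, 265114_at gave 0.18 in the 6-oxo series and -0.38 in the 6-deoxo series.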

How the results depend on the processing

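A D threshold of 1 left 143 members, all among the 246. The 11 calls for the last against the first intermediates became 20 with a pseudocount of 20, 20 with a filter of 30, 4 with eBayes without the trend, 0 with only the 14 arrays of the 7 compounds (no calls among all probe sets either) and 1 to 27 with an array left out. The cause was not tested. Apart from the fit of 14 arrays, counts over all tested probe sets are not printed beside these. Whether other probe sets gained or lost calls alike is therefore not shown. The call for the C-6 average became 0 without the trend and 0 with only 14 arrays, and 0 to 2 with an array left out; its member median of 0.32 was 0.28 with a pseudocount of 20 and 0.25 to 0.38 with an array left out. The C-2 step had 0 to 1 calls with an array left out. The median of the difference between C-6 pairs was 0.17 to 0.36 with an array left out. The C-3 reduction median, 0.03, was -0.034 to 0.081 with an array left out, and turned negative without 3-dehydro-6-deoxoteasterone A (-0.034), 3-dehydroteasterone A (-0.013) and 6-deoxotyphasterol B (-0.0063). The median of its difference between series, 0.25, was 0.27 with quantile normalization, 0.17 with median centring, 0.22 with a pseudocount of 20, 0.22 with a filter of 30 and 0.10 to 0.35 with an array left out.

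The letters A and B were tried as a replicate block. Differences between A and B arrays correlated between groups (median 0.32, from -0.02 to 0.48 over 78 pairs of groups), but the labels do not say what the letters share, so the block is not the basis of any result. With it limma called 102 members for the last against the first intermediates, 4 for the C-2 step, 4 for the C-6 ketone of typhasterol, 18 for the C-6 average and 4 of the 8 list genes for castasterone. The share of all tested probe sets called with the block is not printed here, so these counts do not set the members apart from the array.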
